A study of Homo sapiens with 24 samples.

Results

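Fucosyltransferases were examined in A549 and H1975 cells, 2 human lung adenocarcinoma lines, after 6 h or 24 h with Pirfenidone at 0.75 mg/ml or with an equal volume of PBS, the solvent. The 10 genes were FUT1, FUT2, FUT3, FUT4, FUT6, FUT8, FUT10, FUT11, POFUT1 and POFUT2, found by their symbols in the scanner files, among 24655 genes with a symbol. They had 14 of the 34127 probes, and 13 of these passed the filter on dim probes. The family was chosen by the level of FUT1, which was higher with Pirfenidone in A549 at 6 h on these arrays, so that difference is described here and was not tested. Each of the 8 groups (A549 or H1975, PBS or Pirfenidone, 6 h or 24 h) held 3 samples, each on its own single-color Agilent array. Each line is a single established culture. The study's methods speak in general of independent experiments, but the sample labels do not say whether the 3 samples of a group came from separate cultures.

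Fucosyltransferases move the sugar fucose from GDP-fucose onto glycans or directly onto proteins. FUT1 and FUT2 add fucose to terminal galactose and make the H antigen, FUT3, FUT4 and FUT6 make Lewis antigens such as Lewis x and sialyl Lewis x, and FUT8 adds the core fucose of N-glycans. POFUT1 places fucose on the EGF repeats of Notch receptors and POFUT2 on thrombospondin repeats. FUT10 and FUT11 bear the current RefSeq symbols POFUT3 and POFUT4. In epithelial tumors these enzymes are known for the Lewis and H antigens on the cell surface and for core fucose on growth factor receptors.

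The stretches of bases to which the probes of the most variable members bind are given first, since they decide what a signal stands for. Each line holds 30 of the 60 bases of a probe as the array files list them.
FUT1, bases 1 to 30, chr19:49251268-49251325, minus strand: aactcagctgccacgggtgagagagcagga
FUT2, bases 1 to 30, chr19:49208861-49208920, plus strand: ttccgttcattctttcagtaaatggttgca
FUT3, bases 1 to 30, chr19:5843092-5843151, minus strand: caccacttatagggtacaggtgggatcgac
FUT6 probe A_33_P3222228, bases 1 to 30, chr19:5831537-5831596, minus strand: gctccttcagctgggcactcgctttctgca
Positions are those of the probes on hg19 as the files give them, and exons and introns were not annotated here. The other FUT6 probe, A_33_P3210288, is listed with transcripts of FUT6 and of VSIG1. It lay between 6.40 and 7.10 on the log2 scale on all 24 arrays, and its signal cannot be assigned to FUT6 alone. FUT6 probe A_33_P3222228 is listed with transcripts of FUT6 and of FUT3, so it is written FUT3/FUT6 below.

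Of the remaining members, FUT4 was read by a probe at chr11:94282932-94282991, FUT8 at chr14:66209523-66209582 and POFUT2 at chr21:46684712-46684771. FUT11 had probes at chr10:75535586-75535645 (A_23_P413788) and chr10:75535214-75535273 (A_33_P3354713). POFUT1 had probes at chr20:30805666-30805725 (A_33_P3384845) and chr20:30826235-30826294 (A_23_P370479). The latter was well above background on 6 arrays and was the member probe that was not tested. FUT10 had 2 probes. A_33_P3748714 is listed with a transcript of POFUT3, the current symbol of FUT10, while A_33_P3288294 is listed with no RefSeq transcript. The probes of FUT1 and FUT2 lie 42348 bases apart and those of FUT3 and FUT6 11496 bases apart, in 2 clusters of chromosome 19. FUT5 and FUT9 were not well above background on any array, and FUT7 was so on 1 A549 array and 8 H1975 arrays.

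Per array, 62.7% to 69.5% of probes gave signals well above background. All 5 epithelial markers (EPCAM, CDH1, KRT8, KRT18 and KRT19) were well above background on every array. Of the markers of other cell types, COL1A1 was well above background on all arrays and PTPRC on 23 of 24, while PECAM1 and PDGFRB were so on all 12 H1975 arrays and on no A549 array. File names carry 1 of 4 dates, numbered here as runs. The sources do not say what the date marks. Each group had 1 array in each of 3 runs, 1, 2 and 3 for A549 and 1, 3 and 4 for H1975. Within a run, PBS and Pirfenidone arrays of A549 at 6 h and of H1975 deviated from their group means together. There r was between 0.458 and 0.824 across the tested probes. In A549 at 24 h, r was 0.39, 0.08 and -0.10 for replicates 1, 2 and 3. Whether the labels of the replicate 3 arrays were exchanged was not tested. Values at 24 h printed here that change by more than 1.5 times or in direction without both of these arrays are given both ways. The H1975 arrays of run 1 also stood apart, as described below.

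FUT1 had its lowest level in A549 cells with PBS and its highest in H1975 cells. Levels are log2 signals relative to the 75th percentile of the array, where 0 is that percentile. In A549 at 6 h, FUT1 was at -4.87, -5.20 and -5.41 with PBS and at -3.15, -3.09 and -2.61 with Pirfenidone. The groups did not overlap, and the difference was 2.21 (SE 0.46), or 4.62-fold. Within runs 1, 2 and 3 the difference was 2.80, 1.72 and 2.11. With normexp background correction it was 1.57. In bulk samples, fewer cells of a type and less RNA per cell cannot be told apart. The probe was printed 10 times per array, and the SD between its spots was at most 0.23 on any array. This contrast selected the gene, and 0.176% of the 23827 probes tested passed the threshold in it, an adjusted p of 0.05 or less and a change of at least 2-fold.

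At 24 h the higher level in A549 was no longer seen. FUT1 was at -4.96, -5.22 and -3.41 with PBS and at -5.03, -4.48 and -4.59 with Pirfenidone. The groups overlapped, and the PBS array of replicate 3 stood 1.68 above the mean of the other PBS arrays. The difference was -0.17 (95% confidence interval -1.14 to 0.80; limma, Benjamini-Hochberg adjusted p = 1). Without both arrays of replicate 3 it was 0.33 (adjusted p = 0.949).

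In H1975 the level of FUT1 was high with and without the drug. It was -1.101, -2.06 and -2.09 with PBS at 6 h and -2.0, -1.90 and -0.81 with Pirfenidone. At 24 h it was -2.16, -2.13 and -1.04 with PBS and -1.81, -1.92 and -0.56 with Pirfenidone. The PBS and Pirfenidone arrays overlapped at both times, since the array of run 1 was the highest in every H1975 group. The differences were 0.18 at 6 h (95% confidence interval -0.79 to 1.16; limma adjusted p = 0.971) and 0.34 at 24 h (-0.63 to 1.31; adjusted p = 0.754). Within runs 1, 3 and 4 the Pirfenidone array was always the higher, by 0.29, 0.06 and 0.19 at 6 h and by 0.47, 0.34 and 0.21 at 24 h. The response in H1975 minus that in A549 at 6 h was -2.03 (SE 0.66), which is a description, as it uses the contrast that selected FUT1. At 24 h it was 0.51 (adjusted p = 0.847), and 0.0071 without the A549 arrays of replicate 3.

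**Figure D1:**
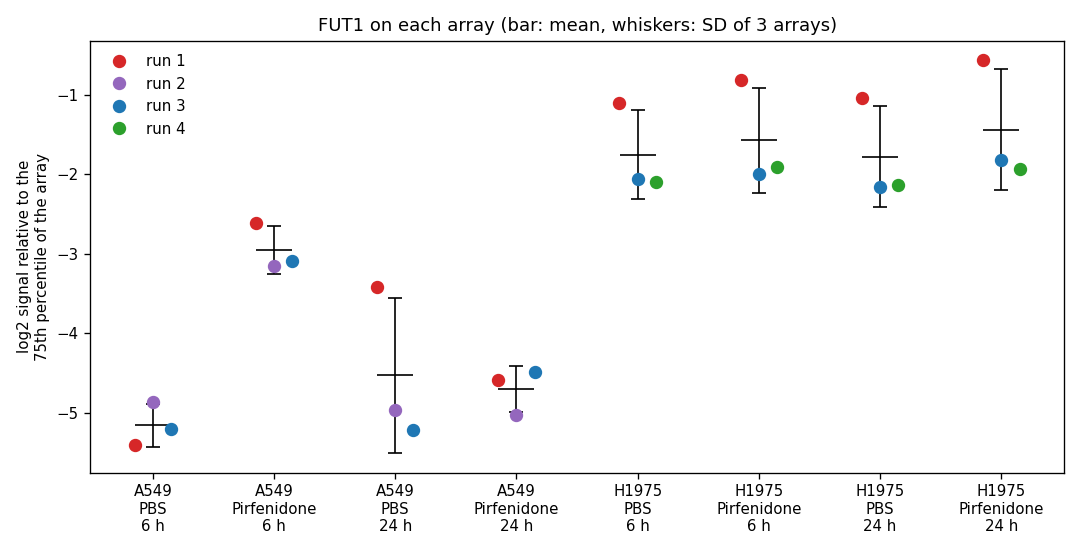
The log2 signal of FUT1 relative to the 75th percentile of the array (y axis) is shown for each of the 24 arrays by group (x axis), with points colored by run, a bar at the mean and whiskers for the SD of 3 arrays. In A549 at 6 h the Pirfenidone arrays lie between -3.15 and -2.61 and the PBS arrays between -5.41 and -4.87, and all H1975 arrays lie at -2.16 or above.

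Ordered by mean, the 8 groups ran from A549 with PBS at 6 h (-5.16 ± 0.27, SD, n = 3), Pirfenidone at 24 h (-4.70 ± 0.29) and PBS at 24 h (-4.53 ± 0.98) to A549 with Pirfenidone at 6 h (-2.95 ± 0.30). The H1975 groups followed, with PBS at 24 h (-1.77 ± 0.64) and 6 h (-1.75 ± 0.56), then Pirfenidone at 6 h (-1.57 ± 0.66) and 24 h (-1.43 ± 0.76). The ranges of the lowest 3 groups overlapped with their neighbors, as did those of the 4 H1975 groups. The A549 group with Pirfenidone at 6 h overlapped with neither neighbor. Treated A549 cells at 6 h thus lay below every H1975 array.

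The probes of other genes whose 12 differences between Pirfenidone and PBS within runs were most like those of FUT1 belonged to NFXL1 (Pearson's r = 0.958), RIOK2 (0.958), SEC24A (0.956), SYVN1 (0.950) and ENTPD7 (0.943), among 18835 probes compared. SYVN1 is a ubiquitin ligase of the endoplasmic reticulum, SEC24A a coat protein of vesicles leaving it and RIOK2 a kinase of ribosome assembly. Their differences in A549 at 6 h were smaller than that of FUT1, from 0.40 for SEC24A to 1.11 for SYVN1. Among the other fucosyltransferase probes, the r with FUT1 was highest for FUT10 probe A_33_P3288294 (0.739), and the median was 0.0151. These 12 differences share arrays of 3 runs per line and the A549 values at 6 h that selected FUT1, so the r are a description.

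RefSeq lists 2 start sites of FUT1. The 250 bases before the upstream start (GRCh38.p14, chr19:48755359-48755608, minus strand) are shown because FUT1 was the member with the largest difference between Pirfenidone and PBS among the 13 tested probes. Capitals mark a match to TGATGNAA, the core of elements known to bind ATF4 with C/EBP proteins.
FUT1 upstream of its start: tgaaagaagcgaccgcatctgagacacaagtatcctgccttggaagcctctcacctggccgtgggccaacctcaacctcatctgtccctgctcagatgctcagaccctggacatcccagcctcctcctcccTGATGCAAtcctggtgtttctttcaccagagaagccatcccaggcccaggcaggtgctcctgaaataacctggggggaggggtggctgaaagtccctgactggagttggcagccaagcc
TGATGNAA was searched on both strands and began 119 bases before this start, and it was absent from the same window at the other start. It was in 3.14% of the 35116 windows of this length. Windows of members were looked up by the array symbols, so any listed under POFUT3 or POFUT4 were left out. Of the 11 windows found, it was in 2, of FUT1 and FUT8. None of the 5 genes most like FUT1 had it. The endoplasmic reticulum stress element (ERSE), in 0.074% of windows, was in none of the 11 member windows searched. A match is a description of letters, and binding was not measured.

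No other fucosyltransferase passed the threshold with Pirfenidone in A549. FUT1 at 6 h was fixed by its selection and is left out of the count, which was 0 of 12 probes at 6 h and 0 of 13 at 24 h (0.0126% of all probes). By the unadjusted p of limma, 0 of 12 and 0 of 13 were at 0.05 or less, where 6.01% and 0.953% of all probes were. The differences of the remaining 12 probes at 6 h lay between -0.20 (FUT4) and 0.27 (FUT10 probe A_33_P3288294). Besides FUT1, only this FUT10 probe had 3 arrays against 3 without overlap at 6 h, where 15.3% of all probes did so, and at 24 h no tested member did (1.82% of all probes). Without both arrays of replicate 3, the signs of FUT1, POFUT2, FUT4 and FUT10 probe A_33_P3288294 at 24 h changed, to 0.33, 0.10, 0.05 and 0.11, and the difference of FUT8 went from 0.02 to 0.37 (adjusted p = 0.615). The precision differed between members. For FUT8 at 6 h, the 95% confidence interval was -0.34 to 0.44 around 0.05, well inside 2-fold, while for FUT3 it was -1.63 to 1.97 around 0.17. FUT2 and FUT3/FUT6 were not well above background on any A549 array, so a response of these probes in A549 has no measured size.

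Pirfenidone in H1975 gave no call among the 13 probes at either time in the fit of all groups, against 0.491% of all probes at 6 h and 1.89% at 24 h. At an unadjusted p of 0.05 or less the counts were 1 and 2 of 13, where 11% and 22% of all probes passed. The median difference of the members was 0.15 at 6 h and 0.22 at 24 h, where the medians of all probes were 0.05 and 0.02. Several members had differences of the same sign in all 3 runs. The share of all probes that did so was not counted, so this is a description. FUT3 was at -3.42, -3.08 and -1.40 with PBS and at -2.32, -2.27 and -0.31 with Pirfenidone at 24 h. Its groups overlapped, but in each run the Pirfenidone array was higher, by 1.08, 1.098 and 0.82. The adjusted p was 0.561 in the fit of all groups, in which the A549 arrays of this dim probe enter the spread.

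A fit of the 12 H1975 arrays with run as a block, chosen after seeing the data, removes the differences between runs. In this fit, 7 of 13 member probes had an adjusted p of 0.05 or less at 24 h, all higher with Pirfenidone, where 28.4% of all probes passed and 15.7% were higher. With run as a block on all 24 arrays, 3 of 13 had such a p, where 21.8% of all probes did. They were among these 7 (FUT3/FUT6, POFUT2 and FUT10 probe A_33_P3748714). FUT3 (limma adjusted p = 0.380), FUT1 (0.434), FUT8 (0.245) and FUT11 probe A_23_P413788 (0.0551) did not pass there. The following values are those of the H1975 fit. FUT3, a Lewis enzyme, rose by 0.9998 (95% confidence interval 0.65 to 1.35; limma adjusted p = 0.00385), close to 2-fold. FUT3/FUT6 rose by 0.85 (0.41 to 1.28; adjusted p = 0.0138). These 2 probes had the largest differences at 24 h among the 13 tested. POFUT1 probe A_23_P370479, which was not tested, was higher by 0.84, 1.58 and 2.51 within runs, but it was well above background on 1 of the 3 Pirfenidone arrays and on no PBS array.

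The other 5 differed by less than 1.5-fold. POFUT2 was at -2.48, -2.50 and -2.81 with PBS and at -1.93, -2.05 and -2.39 with Pirfenidone at 24 h, without overlap. Its difference was 0.48 (limma adjusted p = 0.0185 in the H1975 fit). On all 24 arrays the adjusted p was 0.0355 with run as a block and 0.213 without. FUT10 probe A_33_P3748714 rose by 0.42 (adjusted p = 0.0430), FUT1 by 0.34 (0.0193), FUT8 by 0.26 (0.0447) and FUT11 probe A_23_P413788 by 0.22 (0.0486). The second probes of FUT10 and FUT11 gave 0.05 (adjusted p = 0.732) and 0.15 (0.333). For both genes only the first probe passed, and the difference between probes was not tested.

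At 6 h, 2 of 13 member probes passed in the same fit, where 10.1% of all probes did. FUT3/FUT6 rose by 0.87 (95% confidence interval 0.44 to 1.31; limma adjusted p = 0.0256). Its arrays were at -5.79, -7.32 and -7.47 with PBS and at -6.12, -6.55 and -5.29 with Pirfenidone, in the order of the replicate numbers, which do not follow the runs, and the lowest PBS array was not well above background. Within runs 1, 3 and 4 the differences were 0.50, 1.20 and 0.92. Without the arrays of run 1, in the fit of all groups, it was 1.06 (adjusted p = 0.0100), past both limits.

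FUT4, which makes Lewis x in many tissues, was the member that fell. It was at -1.60, -1.73 and -1.65 with PBS and at -1.96, -2.09 and -2.26 with Pirfenidone at 6 h. All Pirfenidone arrays were below all PBS arrays, as was the case for 1 of 13 member probes, where 17.7% of all probes had groups without overlap. FUT4 fell by 0.44 on the log2 scale (limma adjusted p = 0.0270 in the H1975 fit). On all 24 arrays the adjusted p was 0.0161 with run as a block and 0.0952 without. At 24 h the difference was -0.22 (adjusted p = 0.129 with run as a block), again with no overlap. FUT4 and POFUT2 were the 2 of 13 tested probes without overlap at 24 h, where 31.9% of all probes had none.

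**Figure D2:**
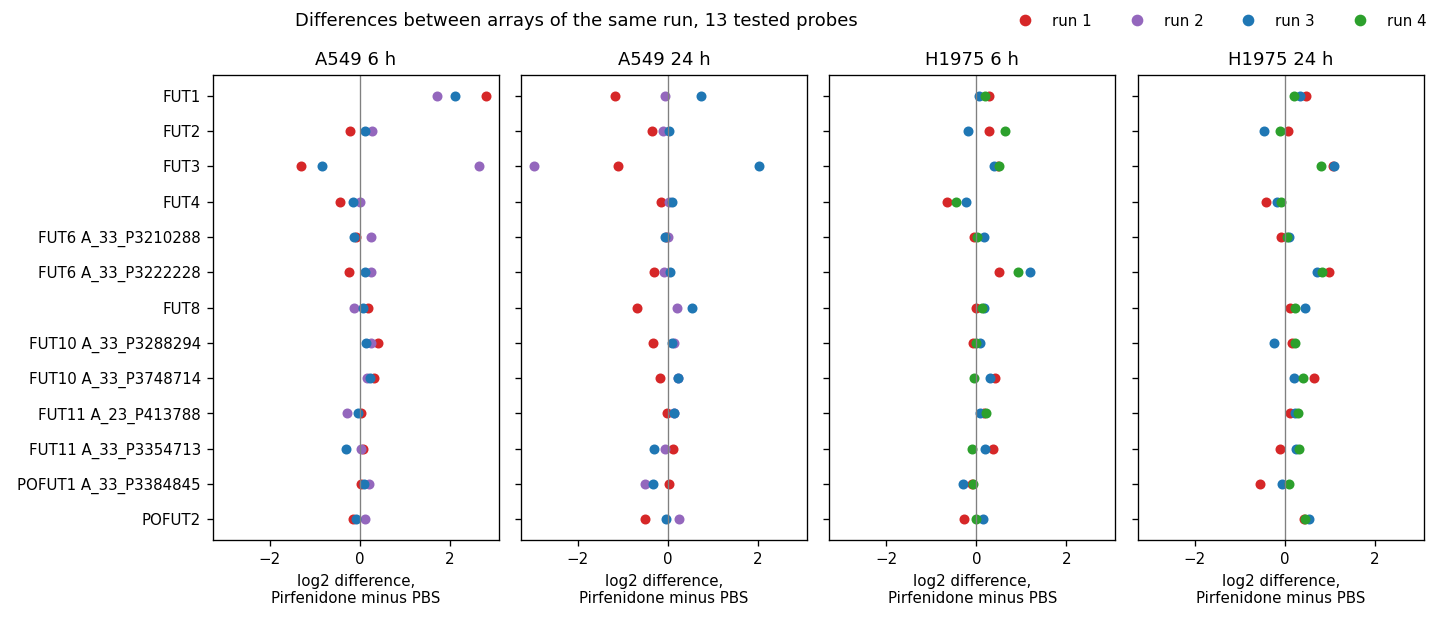
Log2 differences between the Pirfenidone and PBS arrays of the same run (x axis) are shown for the 13 tested fucosyltransferase probes (y axis) in 4 panels for line and time, with points colored by run. FUT1 in A549 at 6 h lies between 1.72 and 2.80, and in H1975 at 24 h FUT3 lies between 0.82 and 1.098 and FUT3/FUT6 (A_33_P3222228) between 0.73 and 0.98.

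In the fit of all groups, the responses of the lines differed past the threshold for 0 of 12 probes at 6 h, FUT1 left out, and for 0 of 13 at 24 h, against 0.0336% and 0.193% of all probes. By the unadjusted p these counts were also 0, where 2.63% and 12.2% of all probes were at 0.05 or less. With run as a block, FUT3/FUT6 had a response 0.96 higher in H1975 at 24 h (adjusted p = 0.0334), under 2-fold, though it was not well above background on any A549 array. For FUT3 the response at 24 h was 1.69 higher in H1975, with an interval from -0.86 to 4.24 (limma adjusted p = 0.639). For FUT8 it was 0.24 higher, with an interval from -0.30 to 0.79 (adjusted p = 0.804), and without the A549 arrays of replicate 3 it was -0.11 (-0.61 to 0.39). Both intervals of FUT8 leave out a 2-fold difference between lines, and that of FUT3 does not. In A549 at 24 h, FUT3 was well above background on 1 of 3 PBS arrays and on no Pirfenidone array. Its difference between the lines in response thus rests on signals near background.

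Levels with PBS differed between the lines for FUT1, FUT2, FUT3, FUT3/FUT6, FUT8 and POFUT2, all with higher signals in H1975. At 6 h 6 of 13 probes passed, all higher in H1975, where 32.4% of all probes passed and 4071 of the 23827 were higher. At 24 h, 5 of 13 passed and were higher, where 32.9% of all probes passed and 18% were higher. These counts are a description, since FUT2, FUT3 and FUT3/FUT6 entered the test only through H1975 groups, where they were high. Among probes well above background on all 24 arrays, the counts were 3 of 9 at 6 h, where 4622 of 18892 probes passed, and 2 of 9 at 24 h, where 4697 passed. At 24 h, 5 of 13 also passed without the A549 arrays of replicate 3. FUT1 at 6 h is among the 6 and was 3.41 higher in H1975, which is a description. The groups of the lines had no overlap for 9 of 13 member probes at 6 h and 11 of 13 at 24 h, against 66.3% and 63.6% of all probes.

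FUT8, the enzyme of core fucose, had the smallest SE among the member probes that passed between the lines. It was at 0.20, 0.41 and 0.19 in A549 and at 2.20, 2.40 and 2.33 in H1975 at 6 h. It was higher in H1975 by 2.04 at 6 h (SE 0.18; limma adjusted p = 1.55e-08) and by 1.72 at 24 h (adjusted p = 1.69e-07), or 4.12-fold and 3.28-fold.

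FUT1 at 24 h was 2.76 higher in H1975 (SE 0.46; limma adjusted p = 4.41e-05), and 3.32 without the A549 arrays of replicate 3 (adjusted p = 8.68e-06). FUT3 was higher by 3.88 at 6 h (SE 0.86; adjusted p = 7.16e-04) and by 4.90 at 24 h (adjusted p = 6.85e-05). FUT3 passed the filter on dim probes only through H1975, so its p-values only describe the fit. In A549 with PBS, however, FUT3 was well above background on 2 of 3 arrays at 6 h and on 1 of 3 at 24 h, so the size of its difference rests on signals near background. With normexp background correction, these differences were between 1.92 and 2.46.

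FUT2, the secretor enzyme, and FUT3/FUT6 were not well above background on any A549 array. Since they entered the test through H1975, their p-values only describe the fit. For these probes a bound was computed against the lowest signal well above background on the dim arrays. By group means, FUT2 was at least 1.15-fold higher in H1975 at 6 h (adjusted p = 0.00136) and at least 1.80-fold at 24 h (adjusted p = 1.76e-04). FUT3/FUT6 was at least 1.01-fold (adjusted p = 8.46e-04) and at least 1.87-fold higher (adjusted p = 3.19e-05). At 6 h both were well above background on 2 of 3 H1975 arrays with PBS, and neither passed with normexp. The bounds at 6 h rest on the H1975 array of run 1, at -5.38 for FUT2 and -5.79 for FUT3/FUT6. The other H1975 arrays with PBS at 6 h lay below the signals used for A549, -6.91 to -6.84, so no bound holds for them.

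Of the enzymes that act directly on proteins, POFUT2 was 1.06 higher in H1975 at 6 h (SE 0.22; limma adjusted p = 4.18e-04) and 0.78 at 24 h (adjusted p = 0.00520), close to the 2-fold limit. POFUT1 probe A_33_P3384845 was higher by 0.78 (adjusted p = 0.00331) and 0.43 (adjusted p = 0.0805). POFUT1 probe A_23_P370479, which was not tested, was lower on all H1975 arrays with PBS at 24 h than on those of A549. It was well above background on 1 of 3 of these A549 arrays and on none of these H1975 arrays, so its difference has no measured size. FUT10 also had lower signals in H1975. Probe A_33_P3748714 was lower in H1975, with differences of -0.79 and -0.84 (adjusted p = 7.89e-04 and 4.14e-04), under 2-fold. The other FUT10 probe gave -0.29 (adjusted p = 0.0717) and -0.41 (adjusted p = 0.0126). FUT4 was 0.58 higher at 6 h (adjusted p = 5.14e-04) and 0.28 at 24 h (adjusted p = 0.0603).

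**Figure D3:**
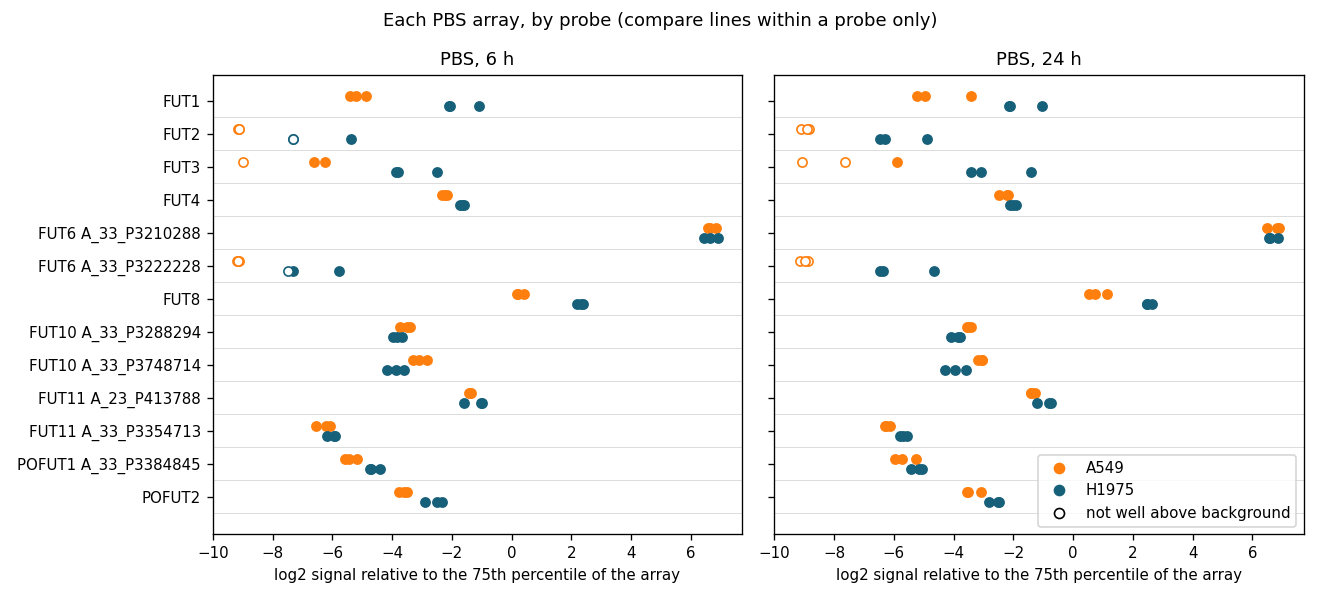
Log2 signals relative to the 75th percentile of the array (x axis) are shown for each PBS array of A549 and H1975 at 6 h and 24 h for the 13 tested probes (y axis), with open circles where the probe was not well above background. FUT8 lies between 0.19 and 1.15 in A549 and between 2.20 and 2.63 in H1975, and FUT2 and FUT3/FUT6 (A_33_P3222228) are open on all A549 arrays.

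Within H1975, the arrays of run 1 had higher signals for FUT1, FUT2, FUT3 and FUT3/FUT6 in all 4 groups. The mean excess over runs 3 and 4 was 1.13 for FUT1, 1.82 for FUT2, 1.65 for FUT3 and 1.59 for FUT3/FUT6. The last 3 were at least 2-fold higher in each of the 4 groups, as were 1.05% of all tested probes. No member was 2-fold lower in all 4, as were 1.51% of all probes. For FUT1, run 1 lay between -1.101 and -0.56 and the other runs between -2.16 and -1.81. The probes with these higher signals all lie in the chromosome 19 clusters. FUT6 probe A_33_P3210288, which lies there too but cannot be assigned to FUT6 alone, differed by -0.11 on average. FUT4, FUT8, FUT10, FUT11, POFUT1 and POFUT2 differed by -0.53 to -0.04 on average.

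The 4 arrays of run 1 in H1975 share 1 slide, so that run and slide cannot be told apart there. Marker genes moved with them. Of the 5 epithelial markers EPCAM was higher by 1.47 and CDH1 by 1.89 on average, while KRT8 differed by -0.61, KRT18 by -0.07 and KRT19 by 0.14. Of the markers of other cell types PECAM1 differed by -1.16, PDGFRB by -0.91, COL1A1 by -0.86 and PTPRC by 0.43. The part of these genes, the run or the slide in the higher fucosyltransferase signals was not tested. In A549, EPCAM was also higher in run 1, by 1.27 to 1.49, and COL1A1 was lower, with differences of -1.60 to -0.83. CDH1 differed by -0.61 to 1.69 and FUT1 by -0.37 to 1.68. FUT2 differed by -0.40 to 0.07, but it was not well above background on any A549 array, so its difference there has no measured size.

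**Figure D4:**
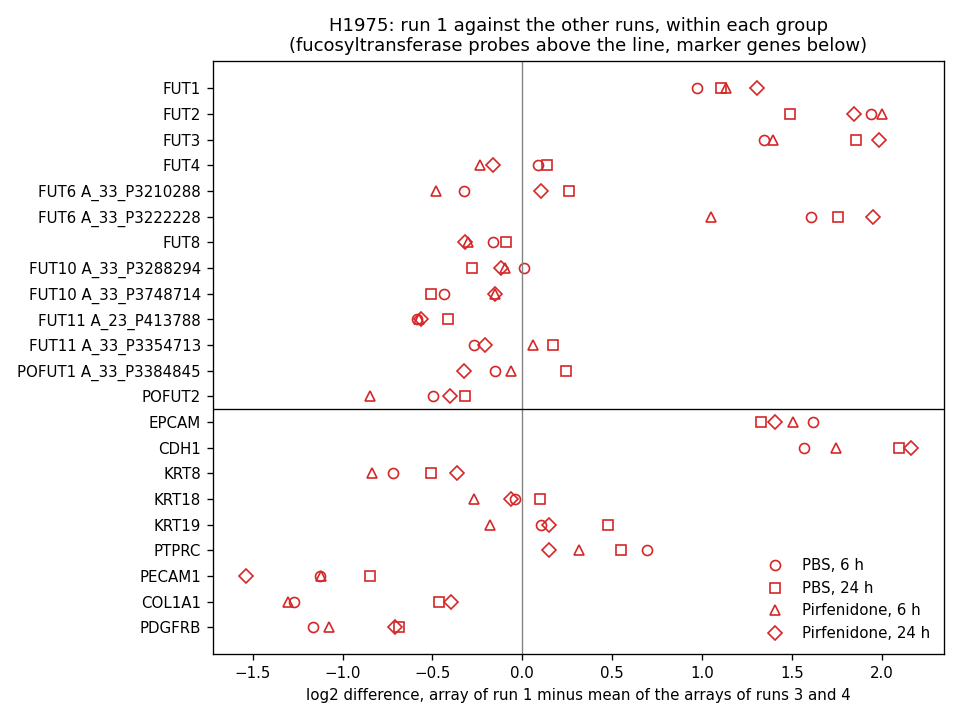
For H1975, the log2 difference of the run 1 array from the mean of the run 3 and run 4 arrays (x axis) is shown in each of the 4 groups (symbols) for the 13 fucosyltransferase probes and, below the line, the 9 marker genes (y axis). FUT1, FUT2, FUT3 and FUT3/FUT6 (A_33_P3222228) lie between 0.97 and 2.001 in all groups, as do EPCAM and CDH1 between 1.33 and 2.16.

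Time in culture with PBS changed no member past the threshold, against 0.109% of all probes in A549 and 0.315% in H1975. In A549 the differences between 24 h and 6 h ranged from -0.26 (FUT3) to 0.63 (FUT1), the latter a description that falls to 0.07 without the arrays of replicate 3. In the H1975 fit with run as a block, 4 of 13 member probes were higher at 24 h, where 10.8% of all probes passed and 7.32% were higher. FUT3/FUT6 was higher by 1.03 (adjusted p = 0.0144), FUT2 by 0.79 (0.0333), FUT3 by 0.77 (0.0195) and FUT11 probe A_23_P413788 by 0.29 (0.0343). With run as a block on all 24 arrays FUT3 did not pass (adjusted p = 0.630), while FUT4 (-0.36, adjusted p = 0.0431) and POFUT1 probe A_33_P3384845 (-0.59, adjusted p = 0.0319) were lower at 24 h. In the H1975 fit these were at adjusted p = 0.0530 and 0.0620.

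Of 48 further genes that supply fucose, build the chains to which it is added, or carry or extend O-fucose, 45 were tested. None passed with Pirfenidone in either line at either time, where 0.0126% to 1.89% of all probes did, and none differed in response between the lines. FUCA1 (0.98, limma adjusted p = 0.0232), B3GALTL (-0.83, 0.0341) and THBS2 (0.70, 0.0460) in H1975 at 24 h had an adjusted p under 0.05 and missed the fold limit. These genes were named after their values were seen. Of 8 genes of fucose supply and removal, none differed between lines with PBS at 6 h, and the lysosomal fucosidase FUCA1 was lower in H1975 at 24 h (-1.15, limma adjusted p = 4.47e-04). The medians of this list, -0.21 and -0.23, stood beside 0.06 and 0.08 for all probes.

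Of 16 tested enzymes of acceptor chains, 3 were higher and 6 lower in H1975 at 6 h, and 2 were higher and 5 lower at 24 h. Over all probes, 32.4% and 32.9% passed in these comparisons. GCNT1, which makes core 2 branches, was 6.06 and 5.84 higher and was well above background on 7 of 12 A549 arrays. MGAT3, which adds the bisecting residue, was not well above background on any H1975 array and was at least 22.2-fold and 26.0-fold higher in A549. B4GALT4 was lower in H1975, with differences of -3.09 and -3.42, and B3GNT5 was higher by 2.002 and 2.24. The sialyltransferase ST3GAL6 was at least 2.53-fold and 2.82-fold higher in A549. The limma adjusted p of these genes was at most 9.08e-07 at both times. MGAT3 and ST3GAL6 were well above background on no H1975 array and entered the test only through A549. Their p-values thus only describe the fit, and the counts that include them are a description.

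Of 12 tested genes of O-fucose extension and Notch, 2 were higher and 2 lower in H1975 at 6 h, and 2 and 3 at 24 h, shares near those of all probes. The Fringe enzymes, which extend O-fucose on Notch, went in different directions. MFNG was higher by 1.99 and 1.61 and LFNG by 1.065 and 1.31, while RFNG differed by -1.22 and -1.29. The receptor NOTCH3 differed by -3.00 and -2.46, and the ligand JAG1 by -1.14 at 24 h. Of 9 tested proteins with thrombospondin repeats, the substrates of POFUT2, 6 were higher and 1 lower at 6 h, and 8 and 1 at 24 h, where 4071 and 4284 of all 23827 probes were higher. SEMA5A was at least 52.7-fold and 65.8-fold higher in H1975, and ADAMTS10 differed by -5.51 and -5.57. The medians of this list were 1.49 and 1.56, beside 0.06 and 0.08 for all probes. SEMA5A, ADAMTSL1 and THBS2 were well above background on no A549 array and entered the test only through H1975. The counts and medians of this list are therefore a description.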

How the data were processed

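Total RNA signals of 24 single-color Agilent arrays were analyzed. The deposited scanner files give intensity values that the authors' scanner software had background-corrected (gProcessedSignal). Here log2 of this intensity minus the 75th percentile of the array was taken over 43118 non-control spots, outlier spots were dropped, and the remaining spots of each probe were averaged. The table of log2 values deposited by the authors served as an alternative. The 23827 probes that rose well above background throughout 1 or more groups of 3 arrays were fitted with limma 3.58.1 in R 4.3.3, with 8 groups and no covariate. The threshold was 0.05 for p after Benjamini-Hochberg adjustment together with a 2-fold change. The Westfall-Young adjustment of the study's methods was replaced, since 3 arrays against 3 allow no two-sided permutation p below 0.1. P-values measure the spread between these samples, which may be technical.

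Members, gene lists and motifs were chosen with earlier results of these data known. The text names every member probe, up to 5 genes of the largest size that passed per pathway list and comparison, and the 5 probes most like FUT1. Alternatives covered background correction, normalization, filters, adjustment, the slide, run or replicate number as a block, and leaving out arrays. The number of arrays limits the precision. Symbols were matched by accession to RefSeq (GRCh38.p14), which also gave the FUT1 upstream sequence. The sequence of 1 FUT6 probe is not reported here.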

Additional observations from a re-analysis of the deposited data

Results flagged for a closer look

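For POFUT1 (probe A_33_P3384845), the differences between Pirfenidone and PBS at 6 h within runs were all above 0 in A549 (0.02, 0.22 and 0.09) and all below 0 in H1975 (-0.10, -0.29 and -0.08). The mean response in H1975 minus that in A549 was -0.263. This opposite direction was not tested as such, and the fitted difference between lines had a 95% confidence interval of -0.88 to 0.35 (limma adjusted p = 1).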

How the results depend on the processing

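Of the counts of member probes past the threshold, 194 were within 1.5 times the reported count and 31 were not. For A549 at 6 h, the count of 1 is FUT1, which was selected there, so it and its changes are a description. It became 0 with normexp, with no filter on dim probes, with only the arrays compared, with the Holm adjustment and with the methods' t-test after Benjamini-Hochberg, and it ranged from 0 to 0 when any array compared was left out. For PBS at 6 h, the count of 6 became 3 with normexp, 3 when each probe had to be well above background on all 24 arrays, 2 with Holm and 11 with run as a block and no fold change limit. For PBS at 24 h, the count of 5 became 3, 2, 1 and 12 under the same alternatives and 10 with no fold change limit. With run as a block, the response difference at 6 h went from 0 to 1, with or without the fold change limit, and that at 24 h from 0 to 1 without it. For H1975 with PBS, 24 h against 6 h went from 0 to 1 with run as a block, 5 without the fold change limit and 4 with only the H1975 arrays. The H1975 drug counts of 0 became 2 at 6 h and 3 at 24 h with run as a block and no fold change limit, 2 and 7 with only the H1975 arrays, and 1 at 6 h without the arrays of run 1. The shares of all probes were 6.83% and 21.8% with run as a block, and 10.1% and 28.4% with only the H1975 arrays. Alternatives with no fold change limit beside run as a block, with only the H1975 arrays, and without run 1 were chosen after seeing the data.

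Replicate numbers did not pair all samples. They coincide with the runs in A549 and in H1975 with and without drug at 24 h, but not in H1975 at 6 h, where r by number was -0.48, 0.43 and -0.68. The replicate block changed no count (1 for A549 at 6 h, 6 and 5 for PBS, 0 otherwise). POFUT2 with PBS at 6 h fell under 2-fold with normexp (0.86), with quantile normalization (0.96), without A549 PBS replicate 3 (0.99) and without H1975 PBS replicate 2 (0.93). FUT2, FUT3 and FUT3/FUT6 were near or below background in A549, while FUT1 was well above it on all arrays. With normexp, FUT2 gave 0.47 and 0.69 and FUT3/FUT6 0.21 and 0.54 between lines, without a call. The cause of these shifts was not tested.

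No value past the threshold changed sign, but 13 values of differences that did not pass did. FUT1 in A549 at 24 h was 0.33 without both arrays of replicate 3, with or without run as a block, and ranged from -0.51 to 0.39 when single arrays were left out. Over such omissions, the response difference of FUT1 at 24 h ranged from -0.049 to 0.88, its H1975 drug difference from -0.20 to 0.51 at 6 h and from -0.096 to 0.71 at 24 h, and its H1975 difference over time from -0.39 to 0.30. FUT3 in H1975 at 6 h ranged from -0.0044 to 0.91. FUT10 probe A_33_P3288294 in H1975 at 24 h ranged from -0.065 to 0.13 and was -0.044 with quantile normalization.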
